A study of Mus musculus with 15 samples.

Results

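Besides probes for named genes, the mouse microarray used on these liver macrophages carried probes that are identified by a chromosome interval and a strand letter alone. Such intervals were put on arrays to follow long intergenic noncoding RNAs. Of 16194 probes of this kind, the 5039 described here were chosen by their signal on these arrays, being well above background in 4 or 5 of the 5 arrays of at least 1 group. They lie in 2567 of 4610 named intervals, an interval being counted once for each strand. The files give no gene, transcript or sequence for them and no word on whether an interval is intergenic or noncoding, so they are called interval probes below. Their coordinates are those in the probe names, on the build mm9 that the file headers state, and a trailing F or R is read as the forward or reverse strand.

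Long noncoding RNAs are transcripts without an open reading frame that is known to be translated. Many are transcribed by RNA polymerase II, spliced and kept in the nucleus, where some act on chromatin or on the splicing machinery, and they are on average less abundant and more restricted to single cell types than messenger RNAs. In macrophages a number of them are switched on or off by inflammatory stimuli. An RNA of unknown structure can also be the end of a neighbouring gene's transcript, which a probe named by an interval does not tell apart.

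RNA came from macrophages with high F4/80, a surface marker of mouse macrophages, that were sorted from livers by CD11c, an integrin chain common on dendritic cells and on some inflammatory macrophages. The wildtype group (WT_SD) holds CD11c-negative cells of male wildtype mice on standard diet, whose age the labels do not give. The NASH groups come from male MC4R-KO mice, which lack the melanocortin 4 receptor that restrains food intake, and which ate a Western diet for 20 weeks from 8 weeks of age and had non-alcoholic steatohepatitis (NASH). Their cells were divided into CD11c-negative (MC4R_WD CD11c-negative) and CD11c-positive (MC4R_WD CD11c-positive). Each group has 5 arrays, and the RNA of each array was pooled from 7 to 9 mice. Nothing in the labels says that the pools of a group came from separate cohorts, so p-values measure the spread between these pools, which may be technical. Genotype and diet differ together between wildtype and NASH mice and cannot be told apart, and no CD11c-positive wildtype cells are among the groups.

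The sort and the cells around it bear on every value below. Adgre1, which encodes F4/80, averaged 7.34 in log2 signal in wildtype cells, and Itgax, which encodes CD11c, averaged 4.21, 5.93 and 7.29 in wildtype, NASH CD11c-negative and NASH CD11c-positive cells. All 6 Kupffer cell markers were lower in NASH CD11c-negative than in wildtype cells (median change -1.68), as were 4 of 5 T cell markers (median -1.22), 4 of 5 B and plasma cell markers (-1.30), 4 of 5 hepatocyte markers (-0.84) and 5 of 6 conventional dendritic cell markers (-1.34). Of 8 neutrophil markers 7 rose in that comparison (median 3.88), and the log2 of the summed neutrophil signal went from 8.67 to 8.74 on wildtype arrays to 10.59 to 10.72. The dendritic cell markers dipped in that group, with a sum of 5.08 to 5.19 in wildtype, 4.34 to 4.48 in NASH CD11c-negative and 5.39 to 5.50 in NASH CD11c-positive cells, and 5 of 6 rose between the NASH groups (median 2.10), while Xcr1 among them was well above background on 0 of the 5 NASH CD11c-negative arrays. The part of these other cells in the interval probes' values was not tested. In a pool of cells, fewer cells of a type and less RNA per cell cannot be told apart.

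Values are log2 signals relative to the 75th percentile of the array's probes, so that 0 is that percentile, and changes are differences of group means of log2 values with the standard error of limma. The interval probes were dim. Between 24.2% and 40.4% of their spots on an array were well above background, against 45.8% to 58.0% of all spots, and 31.1% of them passed the detection rule against 58.6% of the other probes. A kept interval probe lay a median of 2.11, 1.84 and 2.09 log2 units over the lowest detectable signal in wildtype, NASH CD11c-negative and NASH CD11c-positive cells, where the other kept probes lay 4.55, 4.34 and 4.72 over it. Their median standard deviation within a group was wider, at 0.174, 0.209 and 0.17 against 0.0821, 0.0971 and 0.0785.

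The rule read detection on these same arrays, and so the following counts describe the choice of probes. Of the 5039 probes, 3780 met the detection rule in all 3 groups and 3251 (64.5%) were well above background on all 15 arrays. A further 405 met it in wildtype cells alone, 70 in NASH CD11c-negative cells alone and 198 in NASH CD11c-positive cells alone. Wildtype and NASH CD11c-positive cells shared 355 that NASH CD11c-negative cells did not have, and the NASH groups shared 159 that wildtype cells did not have. Among all interval probes, 4348 were well above background on 5 arrays of their best group, 691 on 4, 740 on 3 and 6744 on none. Just inside the rule, A_30_P01021011 averaged -5.60, -3.00 and -3.54 in wildtype, NASH CD11c-negative and NASH CD11c-positive cells, and A_30_P01024215 averaged -3.97, -4.44 and -3.78. Just outside it, A_30_P01022046 averaged -3.72, -4.49 and -3.96, and A_30_P01022614 averaged -3.93, -4.40 and -3.86. These probes were picked as the closest to the limit on either side, so similar levels follow from that choice.

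In NASH CD11c-negative against wildtype cells, 226 interval probes rose and 434 fell at least 2-fold with an adjusted p under 0.05. These were 4.49% and 8.61% of them, beside 4.65% and 7.13% of all 28176 probes tested, so the shares are close to the background. Without the fold limit 1732 rose and 1333 fell, 34.4% and 26.5% beside 44.5% and 28.2%. The median change was 0.12, and that of all probes was 0.13 (0.11 and 0.032 with quantile normalization). How many passed 2-fold followed detection. Of the 3852 probes detected in both groups 126 rose and 156 fell at least 2-fold. Of the 434 that fell, 275 were among the 760 that met the rule in wildtype but not in NASH CD11c-negative cells. A probe is in that class through its dim NASH CD11c-negative signal. Of these 760, 355 also met the rule in NASH CD11c-positive cells. A single probe with fewer than 4 arrays well above background in a group compared was kept through another group, which can favour a difference. Its change is therefore given below as a description with no p. With normexp background correction, which adds a constant before the logarithm and so narrows differences of dim spots, 66 rose and 56 fell.

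The largest difference above wildtype was on chromosome 3 and ran through a whole interval. A_30_P01027709 (chr3:96074625-96086375, forward strand) read -4.29, -4.87, -4.82, -4.91 and -4.80 on the wildtype arrays, -0.78, -0.82, -0.84, -0.75 and -0.65 on the NASH CD11c-negative arrays and -1.39, -1.47, -1.37, -1.37 and -1.33 on the NASH CD11c-positive arrays. It was well above background on 1 wildtype array and on every NASH array, the groups did not overlap, and it was higher by 3.97 ± 0.094 (SE, n = 5 and 5) in NASH CD11c-negative cells. The 4 kept probes measured in both groups were higher by 1.81 to 3.97, and A_30_P01028385 of the interval was well above background on no wildtype array and at least 3.44-fold higher in NASH CD11c-negative cells (means -5.28 and -2.32). Averaged over the 5 probes, the interval read -4.18, -4.62, -4.15, -4.07 and -4.60 in wildtype, -1.63, -1.60, -1.46, -1.49 and -1.48 in NASH CD11c-negative and -2.19, -2.33, -2.14, -2.08 and -2.14 in NASH CD11c-positive cells. The middle group was thus the highest, and all 5 probes were lower by 0.50 to 0.77 in NASH CD11c-positive than in NASH CD11c-negative cells (each with adjusted p under 0.05).

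Another large rise was seen in a bright probe. A_30_P01018083 (chr1:183951156-183986156, forward strand) read 2.01, 1.96, 2.14, 2.50 and 2.39 in wildtype cells, 4.84, 4.89, 5.03, 5.46 and 5.28 in NASH CD11c-negative cells and 4.50, 4.57, 5.03, 4.97 and 4.96 in NASH CD11c-positive cells. It was well above background on all 15 arrays and rose by 2.90 ± 0.15 (SE, n = 5 and 5, adjusted p = 3.74e-10) in NASH CD11c-negative cells. In each group the replicates 1 and 2 were lower than the replicates 4 and 5, which lie on the other slide. Both NASH groups overlapped each other and neither overlapped wildtype. It is the only probe kept of the 5 that the array has for its interval. The others did not pass the detection rule, so the rise rests on 1 probe.

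Among the other probes picked by size, several were near or below the detection limit in wildtype cells. A_30_P01022120 (chr13:22110479-22116629, reverse strand) averaged -3.98 in wildtype cells, where 3 of 5 arrays detected it, and was higher by 3.40 ± 0.15 (SE, n = 5 and 5) in NASH CD11c-negative cells. A_30_P01019323 (chr6:145727805-145728171, forward strand), in an interval of 367 bases, was higher by 3.18 from -3.54. Both were well above background on all NASH arrays. A_30_P01029744 (chr10:21542515-21579890, forward strand) and A_30_P01024127 (chr1:193755364-193770539, forward strand) were higher by 2.74 and 2.72 and were detected on 1 wildtype array each. A_30_P01025422 (chr9:31834945-32015745, reverse strand) was higher by 2.65, from a wildtype range of -5.23 to -3.65 to -2.25 to -1.41. No NASH array of these 5 probes overlapped the wildtype arrays. A_30_P01022120 and A_30_P01024127 were each the only kept probe of 5 in their interval, and A_30_P01025422 was the only one of 6. The other kept probe of the 367-base interval on chromosome 6, A_30_P01030687, was detected on 5 arrays of each group. It changed by -0.18 (adjusted p = 0.792) in NASH CD11c-negative cells, so the rise was not shared by the interval. Detected on no wildtype array were A_30_P01019777 (chr1:182808654-182815659, reverse strand), at least 3.67-fold higher in NASH CD11c-negative cells (means -5.31 and -2.22), and A_30_P01027347 (chr5:144517700-144526071, reverse strand), at least 3.52-fold higher (means -5.42 and -2.29). These folds are lower bounds against the lowest detectable signal of each array, or the probe's own signal where that was higher. That signal is the dimmest spot well above background on the array, and undetected spots can read above it. A_30_P01019323 did so on wildtype replicate 2 (-3.68, against -3.83), so the bounds are approximate.

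Probes with the largest differences in the other direction included neighbours on chromosome 17. A_30_P01031943 (chr17:22420025-22457650, reverse strand) read -0.50, -0.46, -0.46, -0.45 and -0.43 in wildtype cells, -3.64, -3.78, -4.38, -3.86 and -3.54 in NASH CD11c-negative cells and -3.67, -4.04, -4.08, -3.70 and -3.97 in NASH CD11c-positive cells. It was detected on 3 arrays of each NASH group, and its change in NASH CD11c-negative cells was -3.38 ± 0.13 (SE, n = 5 and 5). Every wildtype array lay above every NASH array, and the NASH groups overlapped. A_30_P01030657 (chr17:22335458-22466521, reverse strand), whose interval overlaps that one, was detected on all 15 arrays and went from 0.67, 0.65, 0.69, 0.80 and 0.75 in wildtype cells to -1.88, -2.17, -2.26, -2.07 and -2.03 in NASH CD11c-negative cells. Its change was -2.79 ± 0.072 (SE, n = 5 and 5, adjusted p = 2.2e-13), and all 3 kept probes of its interval fell, by 1.81 to 2.79. The fall was not shared by every probe there, since A_30_P01030119 in the first interval changed by -0.06 (adjusted p = 0.21) from a mean of -0.24.

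Nearby on chromosome 17, A_30_P01030982 (chr17:22013350-22095775, reverse strand) went from -0.33, -0.43, -0.37, -0.38 and -0.38 in wildtype cells to -6.58, -5.65, -5.49, -5.55 and -4.53 in NASH CD11c-negative cells, where no array detected it. It was at least 11.2-fold lower there. In NASH CD11c-positive cells it read -5.86, -5.47, -1.22, -6.84 and -6.13, so replicate 3 alone was detected, and the other 4 were not well above background.

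On chromosome 14 a whole interval was near the detection limit in both NASH groups. The 3 kept probes at chr14:103751075-103769725 on the forward strand averaged -0.93, -0.94, -0.83, -0.75 and -0.88 on the wildtype arrays, -3.78, -3.97, -4.62, -4.12 and -3.86 on the NASH CD11c-negative arrays and -4.12, -4.35, -4.35, -4.14 and -4.23 on the NASH CD11c-positive arrays. The changes of the 2 probes measured on both sides were -3.33 and -3.15 in NASH CD11c-negative cells and -3.36 and -3.42 in NASH CD11c-positive cells. A_30_P01018124 of this interval read -0.57, -0.35, -0.29, -0.35 and -0.42 in wildtype cells and changed by -3.42 ± 0.11 (SE, n = 5 and 5) in NASH CD11c-positive cells, with 3 of 5 arrays detected. The remaining probe, A_30_P01027805, was detected on no array of either NASH group, and was at least 5.21-fold lower in NASH CD11c-negative and at least 6.58-fold lower in NASH CD11c-positive cells.

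Further probes lower in NASH CD11c-negative cells were spread over the genome. A_30_P01026400 (chr3:127039311-127201919, reverse strand) changed by -2.79, with 1 of 5 NASH CD11c-negative arrays detected. A_30_P01024922 (chr13:34693404-34717987, reverse strand) changed by -2.55, while A_30_P01033354 of the same interval rose by 0.40 (adjusted p = 0.000435). A_30_P01021684 (chr1:134245856-134246607, forward strand) lies in an interval of 752 bases and changed by -2.50. Lower bounds apply to the next pair. A_30_P01029835 (chr7:67111261-67120645, reverse strand) read -1.47, -1.48, -1.32, -1.31 and -1.13 in wildtype cells, had no NASH array well above background, and lay at least 5.74-fold lower in NASH CD11c-negative and at least 7.27-fold lower in NASH CD11c-positive cells. A_30_P01023802 (chr5:23195569-23218551, reverse strand) was at least 5.47-fold lower in NASH CD11c-negative cells, and 3 of 5 NASH CD11c-positive arrays detected it.

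Probes of an interval may share a target and cannot be taken as independent, but whether they move together bears on whether a value belongs to the interval. Of 681 intervals with at least 3 kept probes, 8 had every kept probe at least 2-fold higher in NASH CD11c-negative than in wildtype cells and 31 had every one at least 2-fold lower. At least 1 such probe was present in 63 and 142 of them. These counts take in probes with fewer than 4 arrays well above background in a group, which the rule kept through another group. At chr15:73227424-73257474 on the reverse strand, which is among the intervals that fell throughout, 0 of the 4 kept probes were measured in both groups. Overlapping intervals are counted separately here. In 80 of the 681 some probes rose and others fell with an adjusted p under 0.05, and the probes of an interval spanned a median of 0.52 log2 units. Most intervals give no such check, since 1316 of the 2567 have a single kept probe.

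Intervals also overlap each other. Merging those that overlap on a strand turned the 2567 names into 2050 stretches, and the 434 probes that fell at least 2-fold lie in 218 of them, 27 with 4 or more such probes. The longest run was at chr16:43623175-43642715 on the forward strand, where 15 probes of 3 overlapping intervals were kept. The 14 measured in both groups were lower by 1.14 to 2.01 in NASH CD11c-negative cells. All 15 were lower by 0.83 to 1.32 in NASH CD11c-positive than in wildtype cells, 13 of them at least 2-fold. The 14 measured in both NASH groups were higher by 0.16 to 0.69 in NASH CD11c-positive than in NASH CD11c-negative cells. Of these 14, 11 had 4 or more arrays well above background in both NASH groups, so no p is given for the set. Another run was at chr4:129497990-129515290 on the forward strand, which is among the 3 intervals with the highest number of kept probes, 10. Averaged over its 10 probes, it read 1.04, 0.99, 1.02, 1.07 and 1.07 on the wildtype arrays, -0.13, -0.056, -0.19, -0.06 and -0.054 on the NASH CD11c-negative arrays and 0.22, 0.24, 0.31, 0.25 and 0.27 on the NASH CD11c-positive arrays. All 10 fell by 1.05 to 1.21 in NASH CD11c-negative cells, and all 10 were higher, by 0.26 to 0.52, in NASH CD11c-positive than in NASH CD11c-negative cells. The 3 groups of this interval do not overlap, and NASH CD11c-positive cells lie in between.

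At chr3:126989696-127201919 on the reverse strand 7 of 11 kept probes were measured in both groups, and their changes ranged from -2.79 to 0.24 in NASH CD11c-negative cells. At chr7:113768215-113783490 on the reverse strand all 5 kept probes fell, by 1.11 to 2.32, and in NASH CD11c-positive against wildtype cells by 1.75 to 2.53. Other well-covered intervals had smaller changes. The 10 kept probes at chr17:26911397-26917047 on the forward strand had a median change of -0.17, and those at chr6:116092274-116144199 on the reverse strand ranged from -0.86 to 0.21. At chr3:36280098-36347798 on the reverse strand 2 of 9 kept probes fell at least 2-fold and the median was -0.08.

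Rises were more scattered. The 226 probes that rose at least 2-fold lie in 178 stretches, of which 152 hold 1 such probe and 5 hold 4 or more. At chr16:84702353-84710928 on the forward strand 4 of 7 kept probes were measured in both groups, and these 4 rose by 0.57 to 1.34. On the reverse strand of the same coordinates the changes of the 4 kept probes ranged from -0.21 to 1.46, and 3 of them, in 1 interval, rose by 1.07 to 1.46. At chr4:149383134-149451259 on the forward strand the changes of the 5 probes measured in both groups, of 6 kept, ranged from 0.12 to 2.65. The interval chr17:12941161-12944859, whose name carries no strand letter, is apart from the others in this. Of its 5 kept probes 3 were measured in wildtype cells, and they were higher by 0.87 to 1.93 in NASH CD11c-negative and by 1.42 to 2.54 in NASH CD11c-positive cells.

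At chr5:74487385-74497428 the probes of an interval went separate ways. On the reverse strand A_30_P01025874 read -3.77, -3.72, -3.90, -3.61 and -3.90 in wildtype cells, -0.70, -0.81, -0.79, -0.79 and -0.66 in NASH CD11c-negative cells and -3.17, -3.16, -3.17, -3.22 and -2.97 in NASH CD11c-positive cells. It rose by 3.03 ± 0.062 (SE, n = 5 and 5, adjusted p = 1.94e-14) and then changed by -2.39 ± 0.062 (SE, n = 5 and 5, adjusted p = 1.26e-12) between the NASH groups, the largest fall there that was measured on both sides. On the forward strand A_30_P01031385 did the same, from -1.89, -1.98, -2.03, -1.87 and -2.04 to 0.58, 0.55, 0.44, 0.63 and 0.58 and back to -1.42, -1.48, -1.37, -1.35 and -1.25. The groups of both probes did not overlap. A_30_P01032527 on the reverse strand followed them, with changes of 1.80 and -1.60, and A_30_P01026069 on the forward strand did so at 0.68 and -0.90. Most other probes of the interval did not. A_30_P01020357, A_30_P01027365 and A_30_P01031327 on the forward strand fell, by 0.53, 0.77 and 0.58, in NASH CD11c-negative cells, and A_30_P01032580 rose by 1.38 in NASH CD11c-negative cells, with a change of 0.03 (adjusted p = 0.765) between the NASH groups.

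Probes of 1 interval with at least 2-fold changes in both directions were found at 5 intervals over the 3 comparisons, 1 of them in NASH CD11c-negative against wildtype cells. There, at chr1:162933979-162944379 on the reverse strand, A_30_P01027425 rose by 2.65 and A_30_P01027660 fell by 1.04, as A_30_P01021343 (-0.94) and A_30_P01017650 (-0.99) also fell. At chr1:107866276-107887102 on the forward strand A_30_P01025740 rose by 1.09 in NASH CD11c-positive against wildtype cells, while A_30_P01020867, A_30_P01025723 and A_30_P01026157 changed by -1.55, -1.55 and -1.15 and A_30_P01023110 was detected on no NASH CD11c-positive array. The kept probes of such an interval thus moved in both directions between the same arrays.

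NASH CD11c-positive and NASH CD11c-negative cells, which come from livers of the same genotype and diet, differed in fewer interval probes. At least 2-fold higher in NASH CD11c-positive cells were 46 (0.913%, beside 1.33% of all probes tested) and at least 2-fold lower 26 (0.516%, beside 0.98%). Without the fold limit 603 rose and 1032 fell, 12.0% and 20.5% beside 22.6% and 22.7%, so that 36.9% of the calls were rises. That share was 14.5% with normexp background correction and 45.2% with quantile normalization. Over all probes tested it was 49.9%, and 41.1% and 56.1% under the same alternatives. The median change was -0.11, against -0.02 for all probes, and -0.053 against 0.0096 with quantile normalization. Before scaling, the 75th percentile was a signal of 477.6 to 562.4 on NASH CD11c-positive and 358.6 to 403.6 on NASH CD11c-negative arrays. The part of this difference in the share of rises was not tested. At least 2-fold changes became 2 rises and 7 falls with normexp.

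The probes highest in NASH CD11c-positive over NASH CD11c-negative cells had different levels in wildtype cells. A_30_P01025307 (chr14:33923944-34003394, reverse strand) read 0.24, 0.25, 0.30, 0.30 and 0.29 in wildtype cells, -2.32, -2.44, -2.67, -2.25 and -2.22 in NASH CD11c-negative cells and -0.57, -0.72, -0.68, -0.63 and -0.54 in NASH CD11c-positive cells. It rose by 1.75 ± 0.071 (SE, n = 5 and 5, adjusted p = 1.43e-10) between the NASH groups after a change of -2.66 from wildtype to NASH CD11c-negative cells, and no groups overlapped. A_30_P01024957 and A_30_P01019838 of the same interval had the same pattern, with 1.45 and 0.98 between the NASH groups and -2.27 and -1.64 before, while A_30_P01023400 went the other way, by 0.62 (adjusted p = 0.000715) from wildtype to NASH CD11c-negative cells and by -0.50 (adjusted p = 0.00688) between the NASH groups. A_30_P01027511 changed by 0.26 (adjusted p = 0.0524) and -0.048 (adjusted p = 0.755) in the same order.

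A like dip was seen at chr1:161992257-161992963, forward strand, an interval of 707 bases. Its 3 kept probes averaged -1.71, -1.63, -1.65, -1.54 and -1.45 in wildtype, -3.34, -3.71, -3.84, -3.08 and -3.32 in NASH CD11c-negative and -2.06, -1.38, -1.97, -1.96 and -1.86 in NASH CD11c-positive cells, and all 3 were higher in the last by 1.45 to 1.75. A_30_P01030639 among them was detected on 2 NASH CD11c-negative arrays and was higher by 1.75 ± 0.087 (SE, n = 5 and 5) in NASH CD11c-positive cells. A stepwise rise was seen instead at chr9:65368908-65377592 on the reverse strand. There the 3 kept probes averaged -4.36, -4.20, -4.57, -4.06 and -4.35 in wildtype, -2.37, -2.57, -2.53, -2.40 and -2.15 in NASH CD11c-negative and -1.09, -1.13, -1.08, -1.14 and -1.03 in NASH CD11c-positive cells. A_30_P01024579 of this interval rose by 1.45 ± 0.092 (SE, n = 5 and 5, adjusted p = 1.85e-08) between the NASH groups and was 2.04 higher in NASH CD11c-negative than in wildtype cells, of which 3 arrays detected it. At chr10:117021051-117038683 on the forward strand the 6 kept probes of 2 overlapping intervals had a median change of 0.36 from wildtype to NASH CD11c-negative cells and of 0.93 between the NASH groups, where 5 rose and 1 fell.

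Other probes were at or below the detection limit in NASH CD11c-negative cells. A_30_P01025123 (chr17:84397891-84412748, forward strand) was detected on no wildtype or NASH CD11c-negative array and read -2.58, -2.59, -2.47, -2.63 and -2.75 in NASH CD11c-positive cells. It was at least 2.4-fold higher there than in NASH CD11c-negative cells and at least 2.83-fold higher than in wildtype cells. A_30_P01029495 (chr3:95443225-95444967, forward strand) was at least 1.91-fold higher in NASH CD11c-positive than in NASH CD11c-negative cells, and its wildtype arrays (-2.96 to -2.58) overlapped the NASH CD11c-positive ones (-3.18 to -2.48). A_30_P01022259 (chr16:23992037-24001037, reverse strand) was detected on 1 NASH CD11c-negative array and was higher by 1.42 ± 0.22 (SE, n = 5 and 5) in NASH CD11c-positive cells, but by 0.15 with normexp. A_30_P01021393 and A_30_P01031711 of the same interval each changed by 0.10. A_30_P01025039, of the strandless interval on chromosome 17, was detected on 2 NASH CD11c-negative arrays and was higher by 1.37 ± 0.26 (SE, n = 5 and 5).

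Several probes that fell from NASH CD11c-negative to NASH CD11c-positive cells were lower in wildtype than in NASH CD11c-negative cells as well. At chr6:40693617-40720167 on the forward strand all 5 kept probes of 2 overlapping intervals fell between the NASH groups, by 1.18 to 1.58, and all 5 had risen by 0.97 to 1.71 from wildtype to NASH CD11c-negative cells. A_30_P01027687 there read -3.41, -3.51, -2.86, -2.86 and -3.08 in wildtype, -1.86, -1.04, -0.97, -1.66 and -1.64 in NASH CD11c-negative and -2.89, -3.22, -2.97, -2.96 and -3.04 in NASH CD11c-positive cells. The outer groups overlapped and the middle one stood above both. A_30_P01022120 on chromosome 13, named above, changed by -1.80 ± 0.15 (SE, n = 5 and 5, adjusted p = 2.62e-07) between the NASH groups. A_30_P01020131 (chr17:56687541-56694631, reverse strand) read -1.85, -1.87, -1.69, -1.75 and -1.80, then -0.87, -0.71, -0.77, -0.62 and -0.54, then -2.48, -2.34, -2.24, -2.35 and -2.24 over the 3 groups, so that NASH CD11c-positive cells were the lowest. A_30_P01025930 and A_30_P01033014, also kept in that interval, changed less. They changed by 0.31 and 0.09 from wildtype to NASH CD11c-negative cells and by -0.18 and -0.16 between the NASH groups. Detected on no NASH CD11c-positive array, A_30_P01023110 (chr1:107866276-107887102, forward strand) was at least 1.49-fold lower there than in NASH CD11c-negative cells.

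In NASH CD11c-positive against wildtype cells 195 interval probes rose and 340 fell at least 2-fold (3.87% and 6.75%, beside 5.44% and 7.31% of all probes tested). Without the fold limit 1203 rose and 1464 fell, 23.9% and 29.1% beside 43.4% and 27.4%, and 45.1% of the calls were rises (35.1% with normexp). The median change was -0.044, against 0.11 for all probes, and 0.0081 against 0.041 with quantile normalization. This comparison shares its wildtype arrays with the first. A_30_P01024579 on chromosome 9 was higher by 3.48 ± 0.092 (SE, n = 5 and 5), and A_30_P01027709 on chromosome 3 by 3.35. A_30_P01030223 (chr2:119697845-119719245, forward strand) read -3.57, -4.34, -3.83, -3.47 and -3.45 in wildtype and -0.57, -0.68, -0.64, -0.54 and -0.51 in NASH CD11c-positive cells and was higher by 3.15 ± 0.13 (SE, n = 5 and 5), with 3 wildtype arrays detected. A_30_P01025511 (chr4:149445201-149445902, forward strand), in an interval of 702 bases whose 3 kept probes all rose by 2.20 to 3.08, rose by 3.08.

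Among falls in this comparison, A_30_P01031943 on chromosome 17 changed by -3.43 ± 0.13 (SE, n = 5 and 5) and A_30_P01020208 (chr8:70603786-70604243, reverse strand), in an interval of 458 bases, by -2.94. A_30_P01019333 (chr3:127037711-127111912, reverse strand) had no NASH array well above background either, and lay at least 5.85-fold lower in NASH CD11c-positive and at least 4.54-fold lower in NASH CD11c-negative than in wildtype cells. At chr3:146629425-146649125 on the forward strand all 7 kept probes of 2 overlapping intervals fell by 1.67 to 1.84, after falls of 0.97 to 1.23 in NASH CD11c-negative cells, and all 7 were lower in NASH CD11c-positive than in NASH CD11c-negative cells by 0.59 to 0.73. Of the 681 intervals with at least 3 kept probes, 9 had every probe at least 2-fold higher and 31 every probe at least 2-fold lower than in wildtype cells. Between the NASH groups the numbers were 2 and 1.

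A probe on each strand was kept at 461 intervals, and the forward and reverse signals were compared on each array. Exact permutation tests (2-sided, 5 against 5 arrays, with Benjamini-Hochberg adjustment over 1383 tests) found the strands to have changed unequally at 189 intervals (41.0%) in NASH CD11c-negative against wildtype cells, at 72 (15.6%) between the NASH groups and at 187 (40.6%) in NASH CD11c-positive against wildtype cells. With quantile normalization the numbers were 158, 51 and 148. Where every probe of both strands was well above background on 4 or 5 arrays of both groups compared, 72 of 187 intervals were unequal in the first comparison, 36 of 207 between the NASH groups and 94 of 220 in the last. The smallest p that this design allows is 0.00794. The inequality was at least 2-fold at 59, 8 and 38 intervals. Of these, 13, 0 and 11 had every probe of both strands well above background on 4 or 5 arrays of both groups compared. At the others the rule that chose the probes allowed a strand to be undetected in a group. In the first comparison 10 intervals had a probe at least 2-fold higher on both strands, 5 had one at least 2-fold lower on both, 3 had strands in opposite directions and others had such a probe on 1 strand alone, 54 on the forward and 77 on the reverse strand. Leaving out wildtype replicate 4 gave 125 intervals. Between the NASH groups 32 or 33 were found without any 1 of the NASH CD11c-positive arrays, and 44 to 46 without NASH CD11c-negative replicate 1, 3 or 4, and with fewer arrays the smallest p an exact test allows is larger.

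Of the 4 intervals with the most unequal strands, chr8:28345511-28361105 had both strands detected in every group, with 1 kept probe a strand. The reverse strand read -3.24, -3.34, -3.44, -3.29 and -3.39 in wildtype, -0.86, -0.86, -0.61, -2.08 and -0.80 in NASH CD11c-negative and -1.95, -1.07, -0.96, -1.15 and -2.71 in NASH CD11c-positive cells. The forward strand read -1.83, -2.08, -2.27, -2.17 and -2.21, then -2.99, -2.74, -2.98, -2.52 and -2.45, then -1.83, -2.48, -2.41, -2.47 and -2.41 in the same order. Forward minus reverse thus changed by -2.92 in NASH CD11c-negative against wildtype cells (exact permutation, adjusted p = 0.0293), and by -3.24 to -2.76 when an array was left out. NASH CD11c-negative replicate 4 read lower on the reverse strand than the other 4, but above every wildtype array.

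At the other 3 a strand was at or below the detection limit in a group, so that the difference has no exact size and is given by its values, with no test. The forward strand of chr10:21542515-21579890 (2 probes, detected on 0 and 1 wildtype arrays) averaged -5.27, -5.23, -5.09, -5.60 and -5.26 in wildtype and -1.91, -1.38, -1.93, -1.94 and -1.78 in NASH CD11c-positive cells. Its reverse strand (3 probes) read -2.47, -2.66, -2.34, -2.74 and -2.78 and -2.53, -3.18, -2.67, -2.70 and -2.47, so that the groups overlapped on that strand alone. At chr4:147105275-147171025 the reverse strand (3 probes, detected on 5 wildtype and 0 NASH CD11c-negative arrays each) averaged -3.02, -3.03, -1.69, -3.06 and -3.04 in wildtype and -5.77, -5.35, -5.22, -5.33 and -5.66 in NASH CD11c-negative cells. Wildtype replicate 3 stood above the other wildtype arrays there. Its forward strand read -2.22, -2.28, -2.40, -2.93 and -2.72 and -2.43, -1.78, -2.06, -2.54 and -2.55, which overlap. At chr15:73227424-73257474 the 4 probes of the reverse strand were detected on 4 or 5 wildtype arrays and on 0 NASH arrays, while the forward probe was detected on 4 or 5 arrays of every group.

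Probes were counted by chromosome, strand and interval length as well, as a description without a test. In NASH CD11c-negative against wildtype cells the share at least 2-fold lower was highest on chromosome 16, at 15.8% of 177 kept probes, and lowest on chromosome 6, at 2.8% of 321. The 15 probes of the single stretch on chromosome 16 given above make up much of that count of 28. On the reverse strand 10.4% of 2566 kept probes were at least 2-fold lower and on the forward strand 6.81% of 2468, whereas the shares at least 2-fold higher were 3.9% and 4.94%. With the probes in 4 groups by interval length, 12.0% of those in the shortest intervals, up to 5176 bases, were at least 2-fold lower, against 5.59%, 9.2% and 8.06% in the longer ones. Kept intervals had a median length of 11976 bases. Probes of an interval share it, so that these shares rest on fewer intervals than probes.

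The array also names some long noncoding RNAs by a gene. Of a list of 42, 26 had a probe and 20 were measured. In NASH CD11c-negative against wildtype cells 5 rose, 9 fell and 6 did not pass, with a median of -0.039, beside 44.5% of all probes tested that rose and 28.2% that fell. Rmrp, the RNA of an RNA-processing ribonuclease, rose by 1.78 (adjusted p = 4.7e-13). Neat1, the scaffold of nuclear paraspeckles, fell by 1.20 (adjusted p = 8.98e-12), and Malat1, an abundant RNA of nuclear speckles, fell by 0.96 (adjusted p = 8.54e-12). Between the NASH groups 3 rose, 7 fell and 10 did not pass, beside 22.6% and 22.7% of all probes. There Rmrp fell by 1.44 (adjusted p = 2.42e-11) and Rpph1, the RNA of ribonuclease P, by 1.00 (adjusted p = 2.01e-06), and Norad, which binds Pumilio proteins, rose by 0.56 (adjusted p = 1.3e-06). In NASH CD11c-positive against wildtype cells 5 rose, 11 fell and 4 did not pass, beside 43.4% and 27.4% of all probes, with Malat1 and Neat1 both at -0.84 (adjusted p = 2.68e-11 and 3.71e-10) and Peg13 at -0.73 (adjusted p = 1.1e-11).

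How far a fold can be trusted depends on the signal behind it. The 5039 probes were put in 4 groups of 1259 or 1260 by brightness. In the dimmest, with a mean of at most 0.99 log2 units over the detection limit, 74 rose and 234 fell at least 2-fold in NASH CD11c-negative against wildtype cells, and 2 and 8 did so with normexp. In the brightest, at least 3.63 units over the limit, the numbers were 57 and 39 against 44 and 26. The median size of the change went from 0.52 to 0.18 with normexp in the dimmest group and from 0.41 to 0.36 in the brightest.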

How the data were processed

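Expression in 15 pools of sorted liver macrophages, 5 in each of 3 groups, was measured on Agilent one-colour (Cy3) mouse arrays on 2 slides, with 0.1 ug of RNA labelled per the labels. Spots were read by Agilent Feature Extraction 10.7.3.1, which per the file headers gave every spot a background-subtracted intensity, called the processed signal, and detection flags. A deposited table of log2 values matched the same signal scaled to the 75th percentile and centred on wildtype (the values differed by a median of 0.00146) and served as an alternative.

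Control and outlier spots were left out and repeated spots of a probe averaged; 3 interval probes had an outlier value on an array, and saturation flags were absent. Signals were converted to log2 and the 75th percentile over an array's non-control probes was subtracted. All 28176 of 55681 probes well above background in 4 or 5 arrays of a group entered a linear model with moderated variance (limma 3.58.1 under R 4.3.3; lmFit, eBayes) of the group means without covariates, 2-sided, with Benjamini-Hochberg adjustment over all of them; the steps were tested on simulated data. The number of arrays limits the precision. Named genes were matched by RefSeq accession to the GRCm38 table (26582 probes), without coordinates. No genome of build mm9 was used, so no sequence, gene structure or neighbour is given.

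The probes, lists and tests were chosen with earlier results of these data known. Named probes are, per comparison, the 8 (first comparison) or 6 largest rises and falls that passed without overlap of the groups and were detected on both sides, 1 per interval and strand, with the 3 largest lower bounds. To these come the 4 most unequal strand pairs, the 4 intervals with most kept probes and probes at the limit of the rule. Not every probe so picked is described. The runs of probes and the intervals whose probes moved apart were chosen after their values were seen. Alternatives were normexp (offset 50, on median spot and background intensity), quantile normalization, other filters on dim probes, slide and replicate number as blocks, each slide alone, only the groups compared, each array left out, the deposited values, array weights and another prior.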

Additional observations from a re-analysis of the deposited data

Results flagged for a closer look

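In 8 of 129 groups of 5 arrays examined over the named probes, the highest or lowest array stood apart from the other 4 by more than Dixon's criterion allows, where chance gives about 1 in 20. The widest gap was that of A_30_P01030982 in NASH CD11c-positive replicate 3, which read -1.22 while the other 4 arrays read -6.84 to -5.47 and were not well above background. In wildtype cells A_30_P01027709 was highest on replicate 1 (-4.29, the others -4.91 to -4.80), A_30_P01022120 on replicate 3 (-3.32, the others -4.30 to -4.04), A_30_P01019777 on replicate 4 (-4.40, the others -5.65 to -5.40) and A_30_P01021684 on replicate 2 (-1.38, the others -1.48 to -1.46). In NASH CD11c-positive cells A_30_P01025874 was highest on replicate 5 (-2.97, the others -3.22 to -3.16) and A_30_P01025039 lowest on replicate 1 (-2.88, the others -2.43 to -2.32). In NASH CD11c-negative cells A_30_P01027805 was lowest on replicate 3 (-5.34, the others -4.57 to -4.28) and was well above background on none of the 5 arrays. The cause of these gaps was not tested.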

How the results depend on the processing

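Counts of interval probes changed at least 2-fold depended on how dim spots were treated. Rises and falls in NASH CD11c-negative against wildtype cells, 226 and 434, were 66 and 56 with normexp, 108 and 114 among probes detected on all 15 arrays and 109 and 112 among those whose mean signal was not among the lowest 25%. Between the NASH groups, 46 and 26 became 2 and 7, then 8 and 6, then 10 and 3, and the falls were 17 with no filter. In NASH CD11c-positive against wildtype cells, 195 and 340 became 59 and 75, then 103 and 94, then 107 and 89. Fewer probes are tested under the stricter filters by construction, and the offset of normexp narrows dim changes by construction. Leaving out each array gave 212 to 248 rises and 415 to 441 falls, 42 to 54 and 18 to 30, and 184 to 205 and 324 to 353 in the same order of comparisons. Unequal strand pairs ranged from 125 to 192, 32 to 78 and 127 to 187, and the cause was not tested. Tests of strand pairs within a slide were not run, since 3 against 3 arrays or fewer cannot reach an adjusted p under 0.05.

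Arrays with the same replicate number deviated together for some numbers only (correlations from -0.20 to 0.38), so the labels' numbers were not taken as pairs. The negative values among these were pairs of replicate 3 on different slides. Arrays of different numbers correlated at 0.02 to 0.34 on the same slide, and arrays on different slides at -0.33 to 0.01. The first slide held replicates 1 to 3 of wildtype and NASH CD11c-negative cells, but replicates 1 and 2 of NASH CD11c-positive cells. With the replicate number as a block the counts were 227 and 433, 47 and 25, and 195 and 340, and with the slide as a block 227 and 435, 44 and 23, and 204 and 344. Within the first slide they were 215 and 435, 46 and 27, and 195 and 342, and within the second 258 and 408, 40 and 22, and 229 and 311. Over the 43 named probes, 1527 of 1532 alternative values kept their direction and their side of the threshold, 5 lost the call and 0 reversed, which the choice of probes whose groups do not overlap largely fixes. Those 5 belong to A_30_P01030982 (second slide alone, -4.66 and -4.35 against wildtype), A_30_P01022259 (0.15 with normexp and 1.21 on the first slide alone) and A_30_P01025039 (1.20 on the first slide alone).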
